A study of Rattus norvegicus with 18 samples.

Results

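The Wnt feedback and target genes described here are 10 genes listed by name: Lgr5, Rnf43, Znrf3, Notum, Axin2, Nkd1, Tcf7, Lef1, Sp5 and Tnfrsf19. They were found by symbol among the 28695 rows of the count files, where 9 of the 10 had a row. Znrf3 had none under that symbol and is not analysed here. RNA was sequenced from 18 libraries of rat pXEN cells (labelled rat XENP), an extraembryonic endoderm precursor type grown from blastocysts of the WKY strain, all labelled female and taken between passages 32 and 51. They formed 6 groups of 3 libraries. Serum vesicles were grown with CHIR99021 and serum, at a dose the labels do not make clear. Serum-free vesicles were grown with 3 µM CHIR99021 and murine LIF at 10 ng/ml in N2B27 medium, without feeder cells and without the inhibitors PD0325901 and Y-27632. Sorted vacuolated cells were kept in 0.5 µM CHIR99021 under routine culture and then sorted, by a criterion that the labels do not give. CHIR99021-vacuolated cells had the same 0.5 µM without a sort, and BCS-vacuolated cells had 14% BCS, a supplement the labels do not spell out. Normal cells had routine culture alone. Per the labels the samples of a group were independent preparations, though not stated to be separate derivations, so p-values measure the spread between these samples.

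Wnt ligands bind Frizzled and Lrp5/6 receptors and hold off the destruction complex, in which the kinase GSK3 marks beta-catenin for degradation. Beta-catenin that escapes enters the nucleus, joins TCF/LEF proteins on DNA and switches on target genes. Many of the targets feed back on the pathway, so their RNA is widely read as a gauge of its activity. CHIR99021 inhibits GSK3 and thereby acts on the pathway below the receptors. In the early rodent embryo, Wnt signalling is known for its part in patterning the epiblast and the visceral endoderm.

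The promoter windows of 4 of the genes are shown because each holds the 7 letters of a TCF/LEF motif. RefSeq windows (GRCr8, 250 bases before to 50 after a transcript start) were at hand for 7 of the 10 genes, those other than Lgr5, Notum and Znrf3. The letters searched were CTTTGAT and the shorter CTTTGA, which lies within it, on both strands (ATCAAAG and TCAAAG in reverse). CTTTGAT was found in 4 of the 7 windows, each time on the strand of the gene, and in 1216 of all 33469 rat windows of this length (3.63%). CTTTGA was found in the same 4 windows, and in 5384 of all windows (16.1%). The first base of the longer match lay 132 bases before the start in Axin2, 141 before it in Nkd1, 104 before it in Sp5 and 4 before it in Tcf7. Axin2 had a further CTTTGA 232 bases before the start. The Axin2 window belongs to a transcript that starts 5406 bases downstream of the first start listed for the gene, and that of Rnf43 to one 4622 bases downstream. Neither string of letters occurred in the windows of Lef1, Rnf43 and Tnfrsf19. Such matches are letters in a window, not shown binding sites. Printed below is the upstream part of each searched window, the 250 bases before the start (253 bases for Tcf7, whose match runs over the start), 5′ to 3′ on the strand of the gene with matches in capitals. These stretches lie at chr10:94398535-94398784 on the plus strand (Axin2), chr3:75682427-75682676 on the plus strand (Sp5), chr19:34722847-34723096 on the minus strand (Nkd1) and chr10:36954277-36954529 on the minus strand (Tcf7).
Axin2: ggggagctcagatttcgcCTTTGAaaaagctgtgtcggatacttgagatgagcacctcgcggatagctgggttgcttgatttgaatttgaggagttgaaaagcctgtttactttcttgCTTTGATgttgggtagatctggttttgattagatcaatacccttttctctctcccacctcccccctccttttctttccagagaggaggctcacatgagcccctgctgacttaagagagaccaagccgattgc
Sp5: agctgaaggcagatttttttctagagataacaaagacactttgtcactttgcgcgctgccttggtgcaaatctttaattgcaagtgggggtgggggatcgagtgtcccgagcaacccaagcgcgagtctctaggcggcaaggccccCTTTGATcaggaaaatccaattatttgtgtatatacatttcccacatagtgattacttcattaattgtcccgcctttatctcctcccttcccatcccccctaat
Nkd1: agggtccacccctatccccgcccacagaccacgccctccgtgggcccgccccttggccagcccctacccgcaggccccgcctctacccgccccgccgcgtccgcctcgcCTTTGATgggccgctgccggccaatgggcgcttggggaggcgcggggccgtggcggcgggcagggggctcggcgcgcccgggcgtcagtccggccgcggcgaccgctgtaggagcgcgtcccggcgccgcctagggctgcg
Tcf7: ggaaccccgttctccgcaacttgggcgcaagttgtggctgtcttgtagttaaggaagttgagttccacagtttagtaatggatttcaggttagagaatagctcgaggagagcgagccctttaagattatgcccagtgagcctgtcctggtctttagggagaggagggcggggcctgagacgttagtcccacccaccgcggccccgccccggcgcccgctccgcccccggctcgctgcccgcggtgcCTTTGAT

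**Figure D1:**
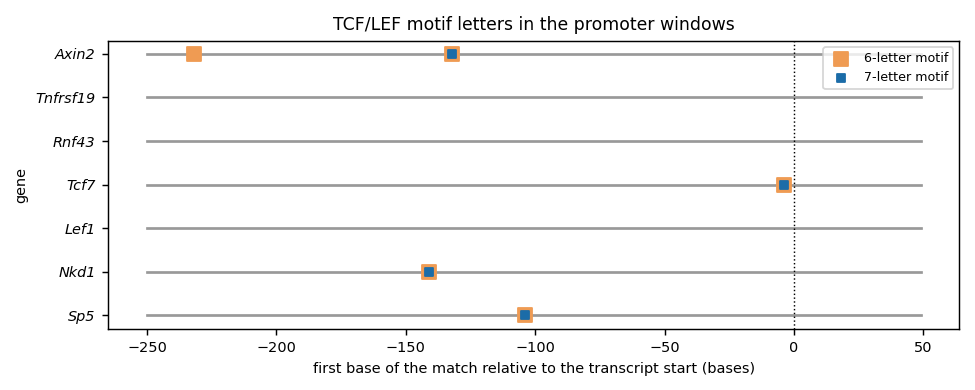
Positions of the motif letters in the 7 promoter windows that were at hand. Each grey line is 1 window, the x axis is the distance in bases from the transcript start (dotted line), blue squares mark CTTTGAT and orange squares CTTTGA, and 4 windows hold the longer match.

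Libraries held 4.05 M to 12.1 M strand-specific counts, of which 1.92 M to 6.54 M fell outside a pair of dominating genes that took 37.6 to 61.1%. All 13 pXEN and primitive endoderm markers had counts in every group, summing to 4305 to 5001 CPM in serum vesicles, 4818 to 5553 CPM in serum-free vesicles and 6235 to 6949 CPM in normal cells. Members of this list went both ways. Pou5f1 averaged 1.25 ± 0.482 CPM in serum vesicles and 0.746 ± 0.824 CPM in serum-free vesicles, against 118 ± 15.7 CPM in normal cells (SD, n = 3 each), and Gata6 averaged 13.8 ± 3.33 and 15.8 ± 2.84 CPM in the vesicles in that order, against 80.1 ± 3.95 CPM. Foxq1 was higher in the vesicles, at 71.1 ± 2.13 and 45.6 ± 11.4 CPM, against 35.2 ± 5.61 CPM. Pdgfra was higher too, at 244 ± 36.9 and 293 ± 61.2 CPM, against 197 ± 7.39 CPM. Parietal endoderm markers were split as well. Thbd averaged 26.4 ± 3.58 and 34.9 ± 7.05 CPM, against 264 ± 4.69 CPM, and Sparc, Serpinh1 and Pth1r were also lower in the vesicles. Plat was higher there, at 52.9 ± 14.7 and 27.5 ± 23.3 CPM, against 3.18 ± 0.525 CPM. Fst was higher too, and Snai1 overlapped normal cells. The visceral endoderm marker Cubn averaged 8.46 ± 6.12 and 32.7 ± 8.15 CPM, against 344 ± 77.0 CPM. The visceral endoderm marker Hnf4a averaged 40.9 ± 5.93 and 64.1 ± 12.0 CPM, against 8.39 ± 0.722 CPM. The part of these marker shifts in the vesicle results was not tested. Of 7 epiblast markers with a row, Nanog, Sox2, Fgf4 and Dppa3 were at 0 in normal cells and the list summed to 2.12 to 2.51 CPM there, and in serum vesicles it summed to 0.692 to 3.80 CPM, with 2 counts of Nanog. Of 5 primitive streak and mesoderm markers 4 had a row, and T had none. Mixl1 and Mesp1 were at 0 in every library. Tbx6 had 10 counts in serum vesicles, 1 in serum-free vesicles, 5 in sorted vacuolated cells and 1 in normal cells. Lhx1 had at most 2 counts in a group. The 8 fibroblast genes summed to 3.04 to 15.4 CPM in serum vesicles, 1.34 to 2.64 CPM in serum-free vesicles and 1.06 to 12.7 CPM in normal cells, mostly from Col1a1 and Col3a1, with Postn and Dcn at 0 in every library. In these bulk cultures, fewer cells that express a gene and less of its RNA per cell cannot be told apart. Values below are CPM, counts scaled for library size with TMM factors. Each comparison used edgeR's quasi-likelihood test with Benjamini-Hochberg adjustment over 11503 genes and a threshold of 0.05. Of the 9 genes with a row, 6 had enough counts for that test, and Nkd1, Notum and Sp5 did not. Since some of the 6 passed the filter only through libraries where they were high, counts of them are given as a description. Where a group had 0 counts, a fold is a lower bound, with 3 counts over that group put in place of 0. The counts of the other group are taken as they stand, so the bound allows for counting error in the group at 0 only.

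**Figure D2:**
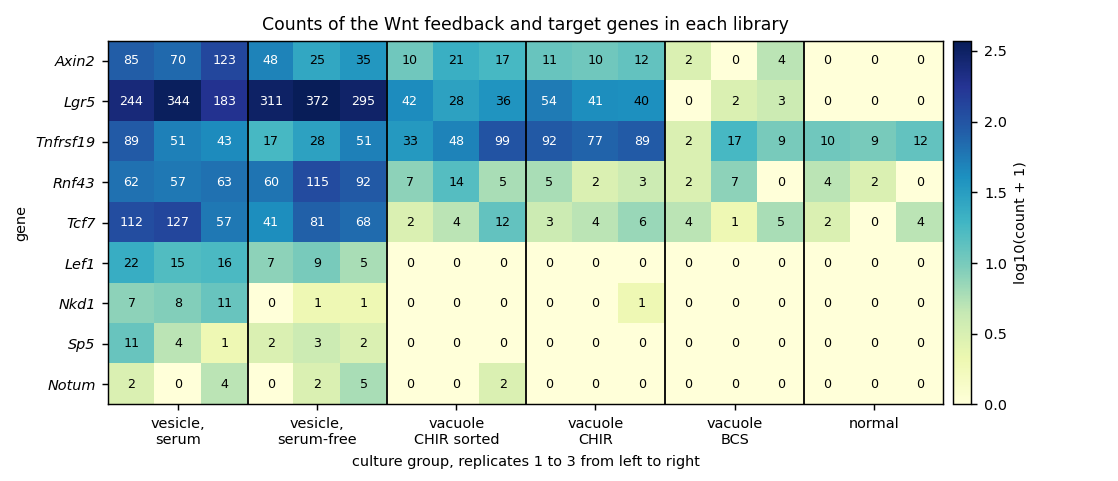
Counts of the 9 genes with a row (down the page) in each of the 18 libraries (across, 3 per group). Colour is log10(count + 1) and the number in each cell is the count. Lef1 reads 0 in all 12 libraries outside the vesicles, and Axin2 and Lgr5 read 0 in the 3 normal libraries.

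Lgr5 is a receptor for R-spondins, the secreted proteins that raise the sensitivity of cells to Wnt. It had 37.1, 47.9 and 42.2 CPM in serum vesicles and 58.6, 45.2 and 34.4 CPM in serum-free vesicles. It had 4.84, 3.13 and 2.84 CPM in sorted vacuolated cells and 7.57, 7.07 and 5.47 CPM in CHIR99021-vacuolated cells. BCS-vacuolated cells had 0, 0.220 and 0.388 CPM, and all 3 normal libraries had 0 counts, which allows up to 0.173 CPM. Each of the 12 libraries grown with CHIR99021 thus lay above each of the 6 grown without it. Against normal cells Lgr5 was at least 247-fold higher in serum vesicles (771 counts against 0, edgeR adjusted p = 3.23e-13) and at least 256-fold higher in serum-free vesicles (978 against 0, adjusted p = 2.20e-13). It was at least 20.3-fold higher in sorted (106 against 0, adjusted p = 1.60e-06) and at least 38.6-fold higher in unsorted CHIR99021-vacuolated cells (135 against 0, adjusted p = 1.38e-07). The vesicles held the top of the order. Serum and serum-free vesicles did not differ detectably (log2 fold change -0.11 ± 0.21 SE, adjusted p = 0.741), and their libraries overlapped. BCS-vacuolated cells stood last but one, with 5 counts against 0 in normal cells (adjusted p = 0.105).

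Rnf43 encodes a membrane ubiquitin ligase that removes Frizzled receptors from the cell surface, as its relative Znrf3 does. Rnf43 had 9.43, 7.93 and 14.5 CPM in serum vesicles and 11.3, 14.0 and 10.7 CPM in serum-free vesicles. It had 0.807, 1.56 and 0.394 CPM in sorted and 0.701, 0.345 and 0.410 CPM in unsorted CHIR99021-vacuolated cells. It had 0.339, 0.771 and 0 CPM in BCS-vacuolated cells, against 0.718, 0.384 and 0 CPM in normal cells. The 6 vesicle libraries stood apart, and the other 4 groups overlapped. The rise over normal cells was 28.8-fold in serum vesicles (log2 fold change 4.85 ± 0.60 SE, edgeR adjusted p = 2.37e-07) and 32.9-fold in serum-free vesicles (5.04 ± 0.59, adjusted p = 1.22e-07). These sizes rest on few normal counts: without normal replicate 1 the log2 fold changes were 5.81 and 6.0, and without normal replicate 3 they were 4.20 and 4.39. Against normal cells the log2 fold change was 1.30 ± 0.77 in sorted (adjusted p = 0.228) and 0.48 ± 0.90 in unsorted CHIR99021-vacuolated cells (adjusted p = 0.828). Serum and serum-free vesicles did not differ detectably (-0.19 ± 0.38, adjusted p = 0.753).

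Notum encodes a secreted enzyme that inactivates Wnt ligands by removing their lipid. It had 2, 0 and 4 counts in serum vesicles, 0, 2 and 5 in serum-free vesicles, and 0, 0 and 2 in sorted vacuolated cells. It had 0 counts in the other 9 libraries, the normal ones included. Since 1 library of each vesicle group was also at 0, both vesicle groups overlapped normal cells. Over the group this made 6 counts in serum vesicles and 7 in serum-free vesicles, against 0 in normal cells. Without the filter on low counts its edgeR adjusted p was 0.103 in serum vesicles and 0.133 in serum-free vesicles.

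Axin2 encodes a scaffold of the destruction complex and is among the best-known direct targets of beta-catenin. It had 12.9, 9.74 and 28.4 CPM in serum vesicles and 9.04, 3.04 and 4.08 CPM in serum-free vesicles. It had 1.15, 2.35 and 1.34 CPM in sorted and 1.54, 1.72 and 1.64 CPM in unsorted CHIR99021-vacuolated cells. BCS-vacuolated cells had 0.339, 0 and 0.518 CPM, and normal cells had 0 counts in all 3 libraries. As with Lgr5, every library grown with CHIR99021 lay above every library grown without it. Against normal cells Axin2 was at least 89.0-fold higher in serum vesicles (278 counts against 0, edgeR adjusted p = 4.90e-08) and at least 28.3-fold higher in serum-free vesicles (108 against 0, adjusted p = 5.22e-06). It was at least 9.18-fold higher in sorted (48 against 0, adjusted p = 0.00207) and at least 9.45-fold higher in unsorted CHIR99021-vacuolated cells (33 against 0, adjusted p = 0.00617). In BCS-vacuolated cells its 6 counts against 0 missed the threshold (adjusted p = 0.170). Sorted and unsorted CHIR99021-vacuolated cells overlapped and lay next to each other in the order (log2 fold change -0.03 ± 0.56 SE, adjusted p = 0.986).

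Nkd1 encodes an inhibitor that binds Dishevelled, the protein that relays the signal from Frizzled. It had 7, 8 and 11 counts in serum vesicles, equal to 1.06, 1.11 and 2.54 CPM. It had 0, 1 and 1 counts in serum-free vesicles, 1 count in a single CHIR99021-vacuolated library, and 0 in the other 11 libraries. Serum vesicles were thus the only group with Nkd1 counts in all 3 libraries. Nkd1 was at least 8.33-fold higher in serum vesicles than in normal cells (26 counts against 0). Without the filter on low counts, over 20171 genes, its edgeR adjusted p for that comparison was 0.00210.

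Tcf7 and Lef1 encode TCF/LEF transcription factors, the DNA-binding partners of beta-catenin, and both genes are known targets of the pathway as well. Tcf7 had 17.0, 17.7 and 13.1 CPM in serum vesicles and 7.72, 9.83 and 7.92 CPM in serum-free vesicles. It had 0.230, 0.447 and 0.947 CPM in sorted and 0.421, 0.690 and 0.820 CPM in unsorted CHIR99021-vacuolated cells. It had 0.678, 0.110 and 0.647 CPM in BCS-vacuolated cells, against 0.359, 0 and 0.605 CPM in normal cells. The vesicles lay above all other libraries, which overlapped among themselves. The rise over normal cells was 44.6-fold in serum vesicles (log2 fold change 5.48 ± 0.50 SE, edgeR adjusted p = 1.30e-09) and 23.7-fold in serum-free vesicles (4.57 ± 0.52, adjusted p = 5.25e-08). Without normal replicate 3 these log2 fold changes were 6.31 and 5.40, and with unstranded counts they were 4.39 and 3.50. Against normal cells the log2 fold change was 0.73 ± 0.70 in sorted (adjusted p = 0.485) and 0.87 ± 0.74 in unsorted CHIR99021-vacuolated cells (adjusted p = 0.558).

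Lef1 had 3.35, 2.09 and 3.69 CPM in serum vesicles and 1.32, 1.09 and 0.582 CPM in serum-free vesicles. It had 0 counts in all 12 other libraries, which allows up to 0.0990 CPM in sorted, 0.148 CPM in unsorted CHIR99021-vacuolated, 0.132 CPM in BCS-vacuolated and 0.173 CPM in normal cells. Lef1 was thus detected in every vesicle library and in no other. Against normal cells it was at least 17.0-fold higher in serum vesicles (53 counts against 0, edgeR adjusted p = 4.52e-05) and at least 5.50-fold higher in serum-free vesicles (21 against 0, adjusted p = 0.00208). With unstranded counts the fitted log2 fold changes were 4.59 (adjusted p = 2.38e-05) and 3.17 (adjusted p = 0.00328).

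Sp5 encodes a zinc-finger transcription factor that acts mainly as a repressor downstream of Wnt. It had 11, 4 and 1 counts in serum vesicles and 2, 3 and 2 in serum-free vesicles, and 0 in the other 12 libraries. Like Lef1, it was seen in the vesicle libraries alone, with too few counts for the main test. It was at least 5.13-fold higher in serum vesicles (16 counts against 0) and at least 1.83-fold higher in serum-free vesicles (7 against 0) than in normal cells. Without the low-count filter its edgeR adjusted p was 0.0168 in serum vesicles and 0.107 in serum-free vesicles.

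Tnfrsf19, also called Troy, encodes a membrane receptor of the tumour necrosis factor receptor family that marks some Wnt-dependent stem cells. It had 13.5, 7.10 and 9.91 CPM in serum vesicles and 3.20, 3.40 and 5.94 CPM in serum-free vesicles. It had 3.80, 5.37 and 7.81 CPM in sorted and 12.9, 13.3 and 12.2 CPM in unsorted CHIR99021-vacuolated cells. It had 0.339, 1.87 and 1.17 CPM in BCS-vacuolated cells, against 1.79, 1.73 and 1.82 CPM in normal cells. Its order differed from that of the other genes, with the unsorted CHIR99021-vacuolated cells at the top. Those cells overlapped serum vesicles, which overlapped sorted cells, which in turn overlapped serum-free vesicles. Over normal cells it rose 5.66-fold in serum vesicles (log2 fold change 2.50 ± 0.38 SE, edgeR adjusted p = 4.61e-06) and 2.37-fold in serum-free vesicles (1.25 ± 0.41, adjusted p = 0.0108). The serum-free call rested on replicate 3, without which the adjusted p was 0.0931. The rise was 3.20-fold in sorted (1.68 ± 0.39, adjusted p = 0.00240) and 7.11-fold in unsorted CHIR99021-vacuolated cells (2.83 ± 0.38, adjusted p = 2.13e-05). BCS-vacuolated cells did not differ detectably from normal cells (-0.56 ± 0.48, adjusted p = 0.439).

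**Figure D3:**
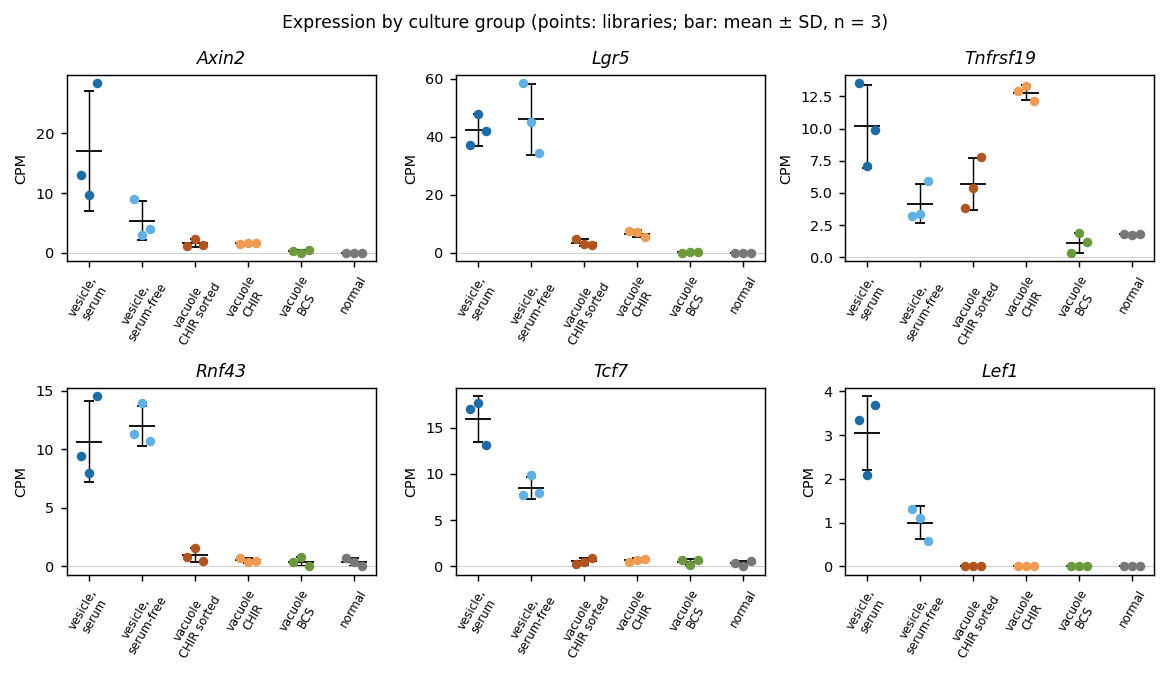
CPM of the 6 tested genes by culture group. Points are libraries and bars the mean ± SD of 3. Rnf43, Tcf7 and Lef1 are high in the vesicles alone, Axin2 and Lgr5 step up in both kinds of CHIR99021 culture, and Tnfrsf19 in CHIR99021-vacuolated cells (12.2 to 13.3 CPM) overlaps serum vesicles (7.10 to 13.5 CPM).

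Against normal cells, all 6 tested genes were called higher in serum vesicles and all 6 in serum-free vesicles. Among all genes tested, 31.7% and 30.2% were called higher in these comparisons. None of the 6 overlapped normal cells in either comparison, where the libraries of 63.7% of all tested genes in serum vesicles and 62.5% in serum-free vesicles did not overlap normal ones. Of the genes with too few counts for the test, Nkd1 and Sp5 did not overlap in serum vesicles, and Sp5 did not in serum-free vesicles. In sorted vacuolated cells 3 genes were called higher (background 14.4%), and in CHIR99021-vacuolated cells 3 as well (background 4.49%). In both cases these were Axin2, Lgr5 and Tnfrsf19, and they were also the genes without overlap, as were 45% of all tested genes in sorted and 31.8% in unsorted CHIR99021-vacuolated cells. In BCS-vacuolated cells none of the 6 was called by edgeR, where 20.7% of all genes were called, 11.2% higher and 9.51% lower. There 1 of the 6, Lgr5, had an unadjusted p under 0.05, and all 6 overlapped normal cells, where 38.2% of all tested genes did not. DESeq2 also called none of them. The same normal libraries served all 5 comparisons. Mitochondrially encoded genes took 7.91 to 9.31% of the counts outside the dominating pair in serum vesicles, 7.11 to 9.43% in serum-free vesicles and 6.76 to 8.91% in sorted cells. They took 2.88 to 4.08% in CHIR99021-vacuolated cells and 3.13 to 3.38% in normal cells. Their part in these results was not tested.

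The next comparison set CHIR99021 against BCS as 2 ways to vacuolated cells. Axin2, Lgr5 and Tnfrsf19 were higher with CHIR99021 (3 of 6 tested, background 5.83%), and none was lower (background 7.4%). The same 3 of 6 did not overlap, as did not 34.3% of all tested genes. Lgr5 averaged 6.70 ± 1.10 CPM with CHIR99021 and 0.203 ± 0.195 CPM with BCS (SD, n = 3 each), a 28.3-fold difference (edgeR log2 fold change 4.82 ± 0.46 SE, adjusted p = 4.18e-07). Without BCS replicate 3 this log2 fold change was 5.48. Tnfrsf19 averaged 12.8 ± 0.568 CPM with CHIR99021 and 1.13 ± 0.767 CPM with BCS, 10.5-fold apart (3.39 ± 0.38, adjusted p = 2.19e-06). Axin2 averaged 1.64 ± 0.0914 CPM with CHIR99021 and 0.286 ± 0.263 CPM with BCS, 5.80-fold apart (2.54 ± 0.79, adjusted p = 0.0366). That call was lost without any one of the 3 CHIR99021 libraries or BCS replicates 1 or 2 (adjusted p = 0.0799 to 0.116). The log2 fold change of Axin2 was 1.85 without BCS replicate 2 and 3.43 without BCS replicate 3. Tcf7 (0.51 ± 0.66, adjusted p = 0.674) and Rnf43 (0.32 ± 0.83, adjusted p = 0.849) did not differ detectably, and Lef1 was at 0 in both groups.

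The sort was examined at the same CHIR99021 dose. Lgr5 and Tnfrsf19 were lower in sorted than in unsorted cells (2 of 6 tested, background 5.05%), and none was higher (background 6.69%). They were the 2 of 6 without overlap, a state shared by 36.9% of all tested genes. Lgr5 averaged 3.60 ± 1.08 CPM in sorted and 6.70 ± 1.10 CPM in unsorted cells (SD, n = 3 each), 1.88-fold lower (edgeR log2 fold change -0.91 ± 0.27 SE, adjusted p = 0.0321). Tnfrsf19 averaged 5.66 ± 2.02 CPM in sorted and 12.8 ± 0.568 CPM in unsorted cells, 2.23-fold lower (-1.15 ± 0.31, adjusted p = 0.0158). Neither call was robust to the loss of 1 library. That of Lgr5 was lost without unsorted replicate 1 (adjusted p = 0.131) or 2 (0.104), or sorted replicate 2 (0.119) or 3 (0.142). That of Tnfrsf19 was lost without unsorted replicate 1 (0.0540) or 2 (0.0591), or sorted replicate 1 (0.0825) or 2 (0.0686). Mitochondrially encoded shares also parted these groups, as given above, and their part was not tested.

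Read against the labelled dose, the genes fell into different shapes. The doses were 0 µM in normal and BCS-vacuolated cells, 0.5 µM in both other vacuolated groups and 3 µM in serum-free vesicles. Axin2 and Lgr5 rose at each step. Over normal cells both were called at 0.5 µM, and between 0.5 and 3 µM Axin2 was 3.17-fold higher (serum-free vesicles over CHIR99021-vacuolated cells, edgeR log2 fold change 1.66 ± 0.52 SE, adjusted p = 0.00986) and Lgr5 6.84-fold higher (2.77 ± 0.24, adjusted p = 2.04e-09). The Axin2 step was lost without serum-free replicate 1 (log2 fold change 1.12, adjusted p = 0.0724). Rnf43, Tcf7 and Lef1 were called at the upper step and not at the lower one. At the upper step Rnf43 was 23.6-fold higher (4.56 ± 0.54, adjusted p = 1.85e-07) and Tcf7 12.9-fold higher (3.69 ± 0.45, adjusted p = 2.20e-07). The log2 fold change of Tcf7 was 2.73 with unstranded counts. Lef1 was at least 6.40-fold higher at that step (21 counts against 0, adjusted p = 0.00151). Tnfrsf19 went the other way, 7.11-fold higher than normal in unsorted cells at 0.5 µM but 3.00-fold lower in serum-free vesicles than in the unsorted CHIR99021-vacuolated cells (-1.58 ± 0.33, adjusted p = 2.26e-04). Sorted cells at the same 0.5 µM had 3.80 to 7.81 CPM of Tnfrsf19 and overlapped the serum-free vesicles (3.20 to 5.94 CPM), so this fall was seen against the unsorted cells alone. In that comparison 5 of 6 tested genes were thus higher (background 28.7%) and 1 lower (background 26.7%), where 55.4% of all genes were called. None of the 6 overlapped between these groups, as did not 62.8% of all tested genes. The dose changed together with the culture form, the medium, LIF and the other components, and these cannot be told apart.

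**Figure D4:**
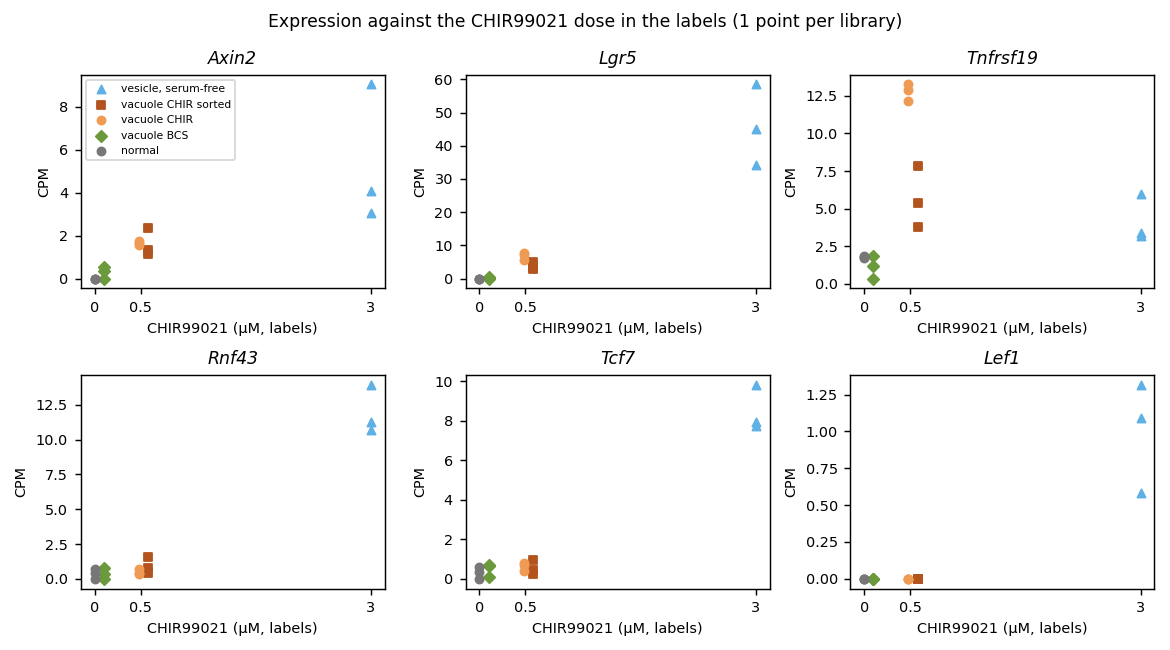
CPM of the 6 tested genes against the labelled CHIR99021 dose in µM, 1 point per library (points at 0 and 0.5 µM are set slightly apart). Serum vesicles are not drawn because their dose is not clear. Axin2 and Lgr5 lie higher at 0.5 than at 0 µM and higher again at 3 µM, Rnf43, Tcf7 and Lef1 lie high at 3 µM alone, and Tnfrsf19 lies highest in the unsorted cells at 0.5 µM, while the sorted cells at that dose (3.80 to 7.81 CPM) overlap those at 3 µM (3.20 to 5.94 CPM).

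Serum and serum-free vesicles were set against each other last. Axin2, Tcf7 and Tnfrsf19 were called higher with serum (3 of 6 tested, background 11.5%), none was called lower (background 12.9%, 24.4% in either direction). Axin2, Lef1, Tcf7 and Tnfrsf19, 4 of 6, did not overlap, beside 32.6% of all tested genes. Axin2 averaged 17.0 ± 9.95 CPM with serum and 5.38 ± 3.21 CPM without it (SD, n = 3 each), 3.21-fold apart (edgeR log2 fold change 1.68 ± 0.44 SE, adjusted p = 0.00859). The call was lost without serum replicate 3, the highest library (log2 fold change 1.11, adjusted p = 0.0896), without serum-free replicate 2 (adjusted p = 0.0504) and with these groups fitted alone (0.0506). Tnfrsf19 averaged 10.2 ± 3.23 CPM with serum and 4.18 ± 1.53 CPM without it, 2.39-fold apart (1.26 ± 0.33, adjusted p = 0.00786), and its call was lost without serum replicate 1 (adjusted p = 0.0603). Tcf7 averaged 16.0 ± 2.45 CPM with serum and 8.49 ± 1.17 CPM without it, 1.88-fold apart (0.91 ± 0.32, adjusted p = 0.0421). Leaving out any 1 of the 6 libraries ended the Tcf7 call (adjusted p = 0.0511 to 0.112), as did passage as a covariate (0.0507). Lef1 had no overlap but missed the threshold (1.61 ± 0.59, adjusted p = 0.0558), and passed it without serum replicate 2 (adjusted p = 0.0423). Nkd1 had 26 counts with serum and 2 without it, a ratio of 15.9 in CPM with a 95% interval of 3.98 to 138 that covers counting error only. Sp5 had 16 counts with serum and 7 without it, and Notum had 6 with serum and 7 without it. The groups differed in serum and, as far as the labels go, perhaps in CHIR99021 dose and LIF. The base medium, feeder cells and the inhibitors PD0325901 and Y-27632 may have differed as well, and all these cannot be told apart.

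Likeness of profile was measured as the root mean square difference in log2 CPM (prior count 2) over the 18 libraries, each gene centred on its own mean. Among the 6 tested genes, Lef1 and Tcf7 were nearest to each other (0.81), then Lef1 and Rnf43 (0.95), and Lgr5 and Tnfrsf19 were farthest apart (2.20). Among all genes with a proper symbol, the nearest to Lef1 were Prrt4 (0.26), Fzd5 (0.26) and Sstr2 (0.39), beside a spread of Lef1 itself of 1.46 (SD). Lef1 had no counts outside the vesicles, so the prior count sets its log2 values there and bears on its distances to all genes. Fzd5, in contrast, averaged 3.57 ± 0.772 CPM in normal cells (SD, n = 3). Nearest to Lgr5 were Gata2 (0.64), Mmp15 (0.66) and S1pr1 (0.81), beside a spread of 2.97. Gata2, for instance, averaged 83.3 ± 8.94 CPM in serum vesicles, 58.9 ± 11.0 CPM in serum-free vesicles, 11.3 ± 1.78 CPM in CHIR99021-vacuolated cells and 0.472 ± 0.148 CPM in normal cells (SD, n = 3 each). Axin2 lay nearest to Slc4a11 (0.64), Npas2 (0.66) and Fam189a2 (0.73). Tcf7 lay nearest to Cited1, Bspry and Pstpip2 (0.58 each), and Rnf43 to Zfp827 (0.54), Proser2 (0.59) and Matn2 (0.60). For Tnfrsf19 the nearest were Pdzrn3 (0.71), Pitx1 (0.73) and Efnb2 (0.74). These values describe profiles over libraries that fall into vesicles and other cultures.

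The rest of the pathway was read from 8 lists of 101 other genes, 99 of them with a row and 57 tested. In serum vesicles 29 of the 57 were higher and 16 lower than in normal cells (78.9% called, background 60.4%), and in serum-free vesicles 27 were higher and 13 lower (70.2%, background 57.7%). In sorted cells 14 were higher and 6 lower (35.1%, background 25.9%). In CHIR99021-vacuolated cells 3 were higher and 4 lower (12.3%, background 7.62%), and in BCS-vacuolated cells 8 were higher and 6 lower (24.6%, background 20.7%). The median log2 fold change of the 57 was 0.69 in serum vesicles and 0.59 in serum-free vesicles, beside 0.06 and 0.03 over all tested genes, and 0.09 in CHIR99021-vacuolated cells beside 0.00. Each share stood somewhat above its background. These lists were chosen with results known, so the counts per list below describe each list and set none apart from other genes.

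Of 3 tested Wnt ligands, Wnt4 and Wnt11 rose and Wnt7b fell in both kinds of vesicle. A ligand other than Wnt7b was also called higher outside the vesicles, 1 in sorted and 1 in BCS-vacuolated cells (background 14.4% and 11.2%). Over all tested genes 60.4% were called in serum vesicles and 57.7% in serum-free vesicles. Wnt7b averaged 0.313 ± 0.215 CPM in serum vesicles, 2.79 ± 1.05 CPM in sorted, 3.78 ± 1.62 CPM in unsorted CHIR99021-vacuolated and 16.0 ± 2.43 CPM in BCS-vacuolated cells, against 18.1 ± 1.68 CPM in normal cells (SD, n = 3 each). It had 1 count in serum-free vesicles, against 318 in normal cells. Wnt7b was thus lower in every group grown with CHIR99021 (edgeR adjusted p = 1.00e-10 in serum vesicles and 2.35e-05 in CHIR99021-vacuolated cells), and missed the threshold in BCS-vacuolated cells (adjusted p = 0.679). Wnt4 averaged 4.60 ± 3.77 CPM in serum vesicles and 3.01 ± 0.492 CPM in serum-free vesicles, against 0.230 ± 0.278 CPM in normal cells (adjusted p = 1.54e-04 and 9.06e-04). Its log2 fold changes of 4.17 and 3.60 were 5.46 and 4.90 without normal replicate 1, and 3.03 and 2.45 with unstranded counts. The serum value was 3.35 without serum replicate 3. Of the secretion genes, Wls, the carrier that brings Wnt to the surface, rose in every group except CHIR99021-vacuolated cells, most in BCS-vacuolated cells (3.91-fold, adjusted p = 2.14e-05). In the unsorted CHIR99021-vacuolated cells its log2 fold change was 0.62 (adjusted p = 0.196, and 0.0493 without the low-count filter).

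Of 11 tested Wnt receptors, 5 rose and 2 fell in serum vesicles, and 5 rose and 1 fell in serum-free vesicles, shares close to the 60.4% and 57.7% called over all genes. The Frizzled gene Fzd5 rose 10.2-fold in serum vesicles (edgeR adjusted p = 4.10e-10) and 4.67-fold in serum-free vesicles (adjusted p = 4.99e-07). The co-receptor Lrp5 rose 4.82-fold and 2.84-fold in the same order of groups (adjusted p = 4.84e-10 and 4.76e-07). Ror2, a receptor for non-canonical Wnt signals, averaged 8.48 ± 2.70 CPM in serum vesicles and 2.10 ± 1.68 CPM in serum-free vesicles, against 28.6 ± 1.45 CPM in normal cells (SD, n = 3 each). Ror2 rose 2.13-fold in sorted cells (adjusted p = 0.00380) and was also called higher in BCS-vacuolated cells. The BCS call was lost without normal replicate 1, 2 or 3 or BCS replicate 1 or 2 (adjusted p = 0.0724 to 0.121). Lgr4, a relative of Lgr5 that also binds R-spondins, averaged 207 ± 8.88 CPM in serum vesicles and 316 ± 11.7 CPM in serum-free vesicles, 159 ± 16.5 CPM in sorted and 157 ± 16.1 CPM in unsorted CHIR99021-vacuolated cells, and 63.6 ± 16.3 CPM in BCS-vacuolated cells, against 108 ± 5.21 CPM in normal cells. Unlike Lgr5, Lgr4 was well detected in normal cells. It passed the test in all 5 comparisons, lower with BCS (adjusted p = 4.63e-04) and higher elsewhere. The call in unsorted CHIR99021-vacuolated cells (adjusted p = 0.0121) was lost without normal replicate 1 (0.0615) or CHIR99021 replicate 1 (0.0946). The R-spondin gene Rspo3 fell 10.4-fold in serum vesicles (adjusted p = 1.66e-06) and 3.87-fold in CHIR99021-vacuolated cells (adjusted p = 0.00286), and had 2 counts in serum-free vesicles against 103 in normal cells.

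Of 4 tested secreted and surface inhibitors, 2 rose and 2 fell in each kind of vesicle. Over all tested genes 60.4% were called in serum vesicles and 57.7% in serum-free vesicles. Sfrp1, a secreted protein that binds Wnt, was lower in all 5 groups. It averaged 0.254 ± 0.439 CPM in serum vesicles, 8.26 ± 1.73 CPM in sorted, 8.24 ± 3.04 CPM in unsorted CHIR99021-vacuolated and 7.10 ± 1.96 CPM in BCS-vacuolated cells, against 28.7 ± 4.68 CPM in normal cells (SD, n = 3 each, edgeR adjusted p between 9.97e-11 and 4.32e-04). Serum-free vesicles had 1 Sfrp1 count against 497 in normal cells. Kremen1, a receptor for Dkk inhibitors, rose 4.20-fold in serum vesicles (adjusted p = 2.59e-06) and 4.93-fold in serum-free vesicles (adjusted p = 5.05e-07). Apcdd1, a membrane inhibitor of Wnt, had 37 counts in serum vesicles and 144 in serum-free vesicles, against 1 in normal cells, with ratios of 35.6 (95% interval 6.0 to 1442) and 113 (19.99 to 4499.5) from counting error.

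Of 13 tested destruction complex and transducer genes, 7 rose and 2 fell in serum vesicles, 7 rose and 1 fell in serum-free vesicles, and 1 rose in CHIR99021-vacuolated cells. Over all tested genes 60.4%, 57.7% and 7.62% were called in these comparisons, in the same order. In sorted cells 4 rose and 1 fell, and in BCS-vacuolated cells 4 rose and 0 fell. There 25.9% and 20.7% of all tested genes were called. Gsk3b, which encodes a target of CHIR99021, averaged 74.1 ± 12.3 CPM in serum vesicles and 44.7 ± 7.10 CPM in serum-free vesicles, against 24.3 ± 4.63 CPM in normal cells (SD, n = 3 each, edgeR adjusted p = 1.81e-08 and 1.28e-04). Gsk3b was also called higher in BCS-vacuolated cells. That call was lost with the replicate block (log2 fold change 0.50, edgeR adjusted p = 0.0530) and without normal replicate 2 (0.36, adjusted p = 0.195), among other settings. Apc, a scaffold of the complex, was higher in all 5 groups by 1.43- to 1.96-fold. In CHIR99021-vacuolated cells that call (adjusted p = 0.00743) was lost without CHIR99021 replicate 3 (0.0542). Ctnnb1, which encodes beta-catenin and was singled out after its values were seen, averaged 703 ± 69.5 CPM in serum vesicles, 639 ± 50.5 CPM in serum-free vesicles and 723 ± 38.9 CPM in CHIR99021-vacuolated cells, against 691 ± 39.9 CPM in normal cells, and passed the test in none of the 5 comparisons (adjusted p = 0.162 to 0.865). Of 11 tested nuclear partners, 6 rose and 2 fell in serum vesicles, and 3 rose and 2 fell in serum-free vesicles. The shares called over all genes were the same 60.4% and 57.7%. Among the Groucho-type co-repressors of TCF/LEF proteins, Tle1 rose 2.85-fold in both kinds of vesicle (adjusted p = 7.34e-08 and 7.68e-08) and Tle2 10.8-fold and 12.1-fold (log2 fold changes 3.43 and 3.60, or 4.41 and 4.59 without normal replicate 3). Tle4 fell 2.16-fold in serum vesicles and 2.05-fold in serum-free vesicles (adjusted p = 4.16e-07 and 1.28e-06).

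Other reported Wnt targets moved both ways, as did tested genes at large. Of 11 tested, 5 rose and 6 fell in serum vesicles, 5 rose and 5 fell in serum-free vesicles, and 1 rose and 1 fell in CHIR99021-vacuolated cells. Over all tested genes 31.7% rose and 28.8% fell in serum vesicles, and 30.2% rose and 27.5% fell in serum-free vesicles. In CHIR99021-vacuolated cells 4.49% rose and 3.13% fell. Cdx2, a homeobox transcription factor, had 457 counts in serum vesicles, 479 in serum-free vesicles, 3 in sorted, 2 in unsorted CHIR99021-vacuolated and 0 in BCS-vacuolated cells, against 0 in normal cells. It was at least 146-fold higher in serum vesicles (edgeR adjusted p = 2.66e-11) and at least 125-fold higher in serum-free vesicles (adjusted p = 3.69e-11), and like Lef1 it stayed at or near 0 elsewhere. Cdx2 is also a trophoblast marker. That list of 6 genes summed to 21.99 to 33.8 CPM in serum vesicles, of which Cdx2 alone averaged 25.0 ± 5.79 CPM, and to 7.11 to 9.33 CPM in normal cells, while Hand1 was at 0 in every library. In serum-free vesicles the list summed to 19.2 to 28.4 CPM. Its member Eomes averaged 0.854 ± 0.490 CPM in serum vesicles and 0.969 ± 0.212 CPM in serum-free vesicles, against 8.25 ± 1.12 CPM in normal cells. Elf5 went up in serum-free vesicles, with 31 counts against 3 in normal cells, and had 0 in serum vesicles. Krt7 had 13 counts in serum vesicles and 5 in serum-free vesicles, against 0 in normal cells. Gata3 had 3 and 0 counts in the vesicles in that order, against 1. Myc fell 4.57-fold in serum vesicles, 3.18-fold in serum-free vesicles and 2.58-fold in sorted cells (adjusted p = 1.45e-06, 2.65e-05 and 7.90e-04), and Sox9 rose 5.38-fold in serum vesicles (adjusted p = 9.96e-08). Enc1 was higher in all 5 groups, by 1.60-fold in serum-free vesicles to 2.87-fold in serum vesicles and by 2.43-fold in BCS-vacuolated cells, where Axin2 and Lgr5 missed the threshold.

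**Figure D5:**
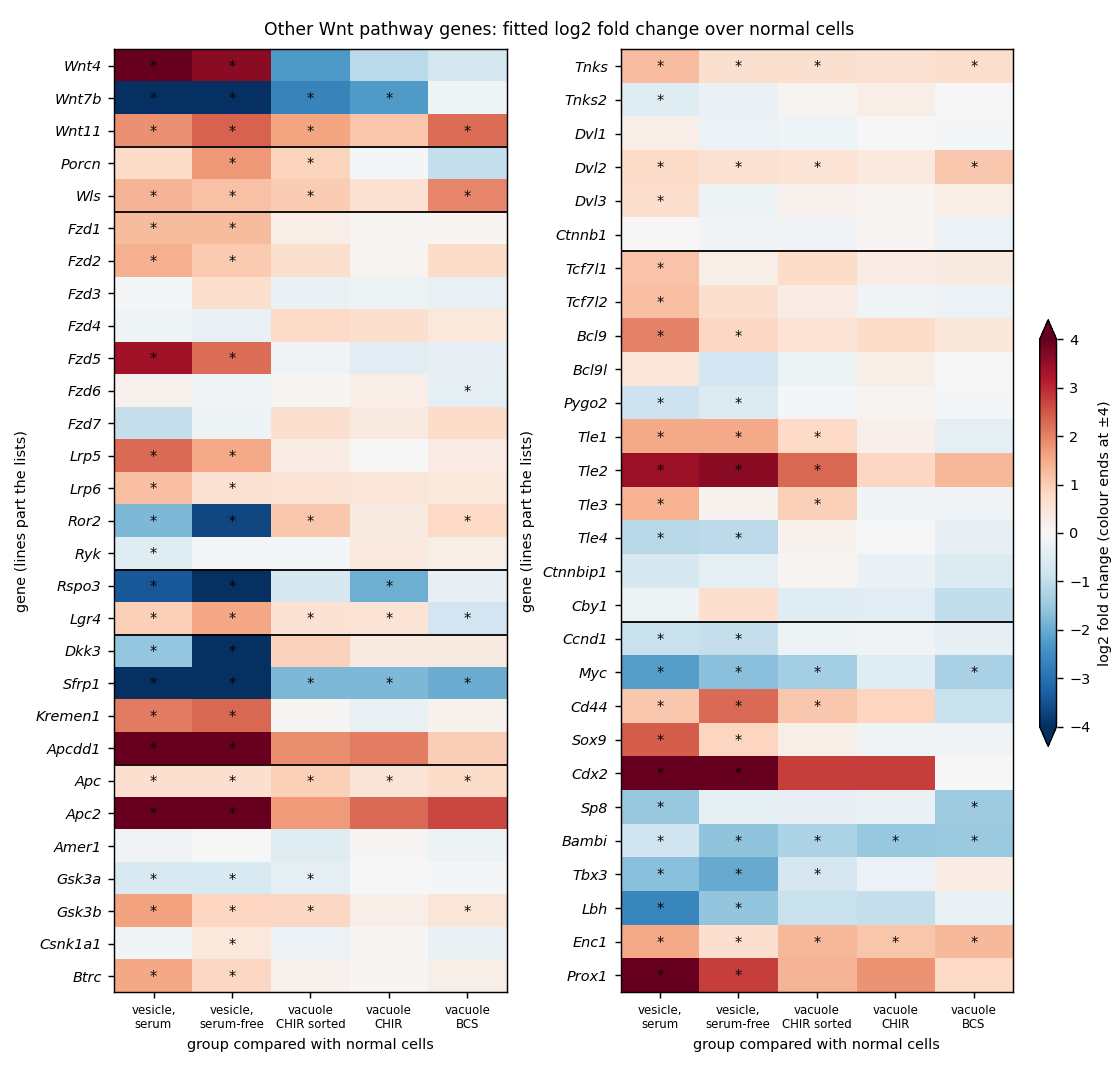
Fitted edgeR log2 fold changes of the 57 tested pathway genes outside the 10 listed genes, in each of 5 groups over normal cells. Red is higher and blue lower than normal (colour ends at ±4), asterisks mark an adjusted p under 0.05, and black lines part the lists. Wnt7b is blue in every group grown with CHIR99021 and Sfrp1 in all 5 groups, and fitted sizes against 0 or few normal counts, such as Cdx2, Apcdd1 and Apc2, are not exact. Apc2 also depended on the strand counted. Its log2 fold change was 4.47 in serum vesicles and 4.84 in serum-free vesicles. With unstranded counts it was 0.45 (edgeR adjusted p = 0.357) and 1.01 (0.0309).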

How the data were processed

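RNA from 18 cultures was depleted of ribosomal RNA, made into directional libraries and sequenced as paired reads, per the labels' protocols. Per the submitters' processing notes, bcl2fastq, Trimmomatic 0.38, STAR 2.6.1 and the rn6 build were used. The deposited files hold raw counts per gene symbol in 3 columns, unstranded and 1 for each strand, without coordinates or lengths. The strand with nearly all counts was used, and the opposite strand held 1.70 to 2.85%. How reads shared by overlapping or near-identical genes were counted is not given in the sources used here.

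The tools were edgeR 4.0.16 and limma 3.58.1 under R 4.3.3. The low-count filter (minimum count 10) left 11503 of 28695 rows. Libraries were scaled by TMM, and all 18 libraries entered 1 model with a mean for each group (residual degrees of freedom 12, common biological coefficient of variation 16.1%), with 9 comparisons and Benjamini-Hochberg adjustment over all tested genes. The code was tested on simulated data. Alternatives were DESeq2 1.42.0 (its test and its size factors), no filter, unstranded counts, each pair of groups alone, a replicate block, a passage covariate and leaving out each library. Log2 CPM correlated across genes at 0.937 to 0.986 between replicates. Bounds, floors and intervals cover counting error only. The 10 genes, the other lists and the tests were chosen with earlier results of these data known. Named were the 10 genes, the 3 nearest profiles to each tested one, and at most 3 passing genes per other list and comparison by adjusted p.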

Additional observations from a re-analysis of the deposited data

Results flagged for a closer look

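Counts on the strand opposite to the gene were not used in the comparisons, and 2 of the genes had more of them in every library of a group than in any normal library. Lgr5 had 8 such counts in serum-free vesicles (1, 1 and 6 by library) and 0 in all normal libraries, beside 978 counts on its own strand in those vesicles. Tcf7 had 31 in sorted vacuolated cells (7, 9 and 15 by library) and 8 in normal cells (5, 0 and 3). On its own strand Tcf7 had fewer, 18 counts in sorted and 6 in normal cells. These values are not scaled for depth, and opposite-strand totals summed to 0.638 M counts in the sorted group and 0.582 M in the serum-free vesicles.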

How the results depend on the processing

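The log2 fold changes of the 6 tested genes were counted as 1 value per gene, comparison and alternative. No value that was called in the main fit or in the alternative changed sign. Sign changes of values called in neither were not counted. Of these values 650 kept their side of the threshold, 27 fell short of it and 1 passed it. All of those 28 lay in comparisons other than serum vesicles, sorted or unsorted CHIR99021-vacuolated or BCS-vacuolated cells over normal cells. Leaving out 1 library at a time left 0 to 2 of the 6 genes called between sorted and unsorted cells (2 with all libraries) and 1 to 3 between serum and serum-free vesicles (3 with all). Over all genes, the same step gave 509 to 650 calls for CHIR99021-vacuolated over normal cells (876 with all), 1293 to 2608 for BCS-vacuolated over normal (2383), 771 to 1950 for CHIR99021 over BCS (1522), 718 to 968 for sorted over unsorted (1350) and 1723 to 2987 for serum over serum-free vesicles (2806). With each pair of groups fitted alone, the calls were 1856 for CHIR99021-vacuolated over normal cells, 2576 for sorted over unsorted cells and 1223 for serum over serum-free vesicles. The cause was not tested. Same-numbered samples showed little shared deviation from their group means (correlations -0.15 to 0.087). Some of them shared a passage, such as replicates 1 and 2 of both vesicle groups at passages 32 and 35. With the replicate block, Tcf7 in serum over serum-free vesicles had a log2 fold change of 0.92 (edgeR adjusted p = 0.0507), and with passage as a covariate 0.89 (0.0507). Of the pathway genes, 2945 values kept their side, 110 fell short, 38 passed and 1 reversed: Apc2 in sorted over normal cells had -1.20 (adjusted p = 0.0465) with unstranded counts, where its strand-specific value was positive and not called. Notum, Sp5 and Nkd1 had at most 26 counts in a group, and whether deeper libraries would change their calls was not tested.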
